A study of Mus musculus with 16 samples.

Results

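The tumors described here are the 6 carcinomas of the series that the labels grade as undifferentiated or spindle cell carcinoma, of 12 skin tumors and 16 arrays in all, and they were chosen by that label and by no measured value. All of them arose spontaneously in mice of the FVB background in which a keratin 14 promoter drives the Cre recombinase (k14Cre), which deletes loxP-flanked alleles in the basal layer of stratified epithelia. The group holds 2 tumors of k14Cre;p53loxP/loxP mice (here p53 tumors) and 4 of k14Cre;p53loxP/loxP;pRbloxP/loxP mice (here pRbp53 tumors), so deletion of p53 in these epithelia is shared by all 6. By histology 1 was undifferentiated (p53 tumor 3) and 5 were spindle cell carcinomas (p53 tumor 6 and pRbp53 tumors 1, 2, 3 and 5). They were compared with 4 samples of normal skin (control skin 1 to 4), which the methods of the study describe as wild type, so the comparison joins tumor formation to the deleted alleles and to Cre. They were also set beside 3 poorly differentiated carcinomas, p53 tumors 2, 4 and 5, and 3 tumors graded as mixed. Ages are not given, and nothing in the labels says whether any tumors or any control samples shared an animal, so p-values measure the spread between these samples. Each sample is a piece of tissue hybridised to 1 mouse expression array, and each value below is a log2 expression level of 1 probeset, so a difference of 1 on this scale is a doubling or a halving of signal.

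Spindle cell carcinoma is the extreme of dedifferentiation in squamous tumors. Epithelial cells are held together by E-cadherin at adherens junctions, by desmosomes that anchor keratin filaments, and by tight junctions, and a set of transcription factors (p63, the Grainyhead-like and Ovol families) and splicing factors (Esrp1, Esrp2) keeps these genes on. In epithelial-mesenchymal transition (EMT), repressors of the Snail, Zeb and Twist families are known to silence that program, while cells take up vimentin, a mesenchymal matrix and matrix-degrading enzymes. The question put to the data was which of these layers differed in undifferentiated and spindle tumors, first from normal skin and then from carcinomas of lower grade.

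Some properties of the arrays bear on every comparison. Control skin 2 and 4 correlated at 0.9957 over all probesets, against 0.970 to 0.984 for the other control pairs. Whether these 2 samples are independent is not known. The female transcript Xist read 11.86 and 11.81 in them, and 5.13 and 7.39 in control skin 1 and 3. Control skin 3 had a larger 3' over 5' signal ratio for actin, a sign of RNA quality, at 1.33 on the log2 scale against 0.21 to 0.60 in the other controls and the 6 tumors. The retinoblastoma gene Rb1, the target of the second deletion, read 9.12, 9.54, 8.98 and 9.40 in control skin. It read 8.04 and 7.66 in the p53 tumors and 7.93, 7.94, 7.67 and 7.85 in the pRbp53 tumors. The 6 tumors lay below all controls (log2 difference -1.41, SE 0.13, adjusted p = 3.09e-05) and the genotypes overlapped, with a genotype difference whose adjusted p was 0.996. Of 2 Rb1 probesets 1 was called lower. Where the probeset read here lies relative to the deleted part is not known, so it is no check of the genotype labels. The expression of the p53 gene is not reported here.

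Against control skin, 5546 probesets were higher and 5295 were lower of 45037 tested, a total of 10841 at an adjusted p of 0.05 with limma and Benjamini-Hochberg adjustment. Read as 18193 genes, each through its probeset with the highest mean, 2601 genes (14.3%) were higher and 2812 (15.5%) were lower, and for 4699 genes (25.8%) the tumors and the controls did not overlap. The median difference over all genes was 0.05. The falls were larger than the rises, since 559 called genes fell by 3 or more and 77 rose by 3 or more. Counts depended on the control arrays, and leaving out any 1 array gave 8350 to 11141 probesets. With control skin 2 and 4 averaged into 1 sample, 8693 probesets were called. These shares are the background for the counts of the gene lists below.

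Rises and falls were ranked among called genes whose groups do not overlap. The largest rise was that of Mmp13 (collagenase 3), which read 3.68, 3.38, 3.90 and 3.77 in control skin and 6.95 to 12.21 (median 9.91) in the tumors, a log2 difference of 6.25, SE 0.93, adjusted p = 8.42e-04. The chitinase-like secreted protein Chil3 differed by 5.51, the matrix glycoprotein tenascin C (Tnc) by 5.45 and Timp1, an inhibitor of matrix metalloproteinases, by 5.04. Hmga2, an architectural chromatin protein of embryonic tissue, read 5.37, 4.93, 5.70 and 4.98 in control skin and 8.67 to 12.39 (median 10.71) in the tumors (difference 5.42, SE 0.66, adjusted p = 2.11e-04). By that choice all 6 tumors were above all 4 controls for each of these genes. The other genes among the 12 largest rises were Brinp3 (5.30), the cannabinoid receptor Cnr1 (5.09), Xaf1 (5.07), the leukocyte adhesion receptor Vcam1 (4.79), the metalloreductase Steap2 (4.66), the prostaglandin synthase Ptgs2 (4.54) and the neutrophil chemokine Cxcl5 (4.47). Xaf1 was read by 2 probesets, of which 1 rose and 1 fell.

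The largest fall was that of Krtdap, a secreted product of differentiating keratinocytes, which read 13.59, 13.66, 13.61 and 13.81 in control skin and 3.99 to 4.28 (median 4.11) in the tumors, a difference of -9.54, SE 0.09, adjusted p = 1.61e-12. Keratin 77 (Krt77) differed by -9.10, the junctional actin-binding protein Pof1b by -8.93, desmoplakin (Dsp) by -8.90 and the cornified envelope protein Lce1c by -8.78. Dmkn (-8.66), Krt1 (-8.57), Clca3a2 (-8.38), Serpinb7 (-8.20), Krt15 (-8.17) and the defensin Defb6 (-8.04) completed the group, together with the muscle myosin Myh4 (-8.80). By the choice of genes for the ranking, the 6 tumors lay below the 4 controls in each of them. Apart from Dmkn, Clca3a2 and Myh4 the tumors differed among themselves by less than 2 log2 units. Bulk RNA cannot tell fewer cells of a type from less RNA per cell.

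**Figure D1:**
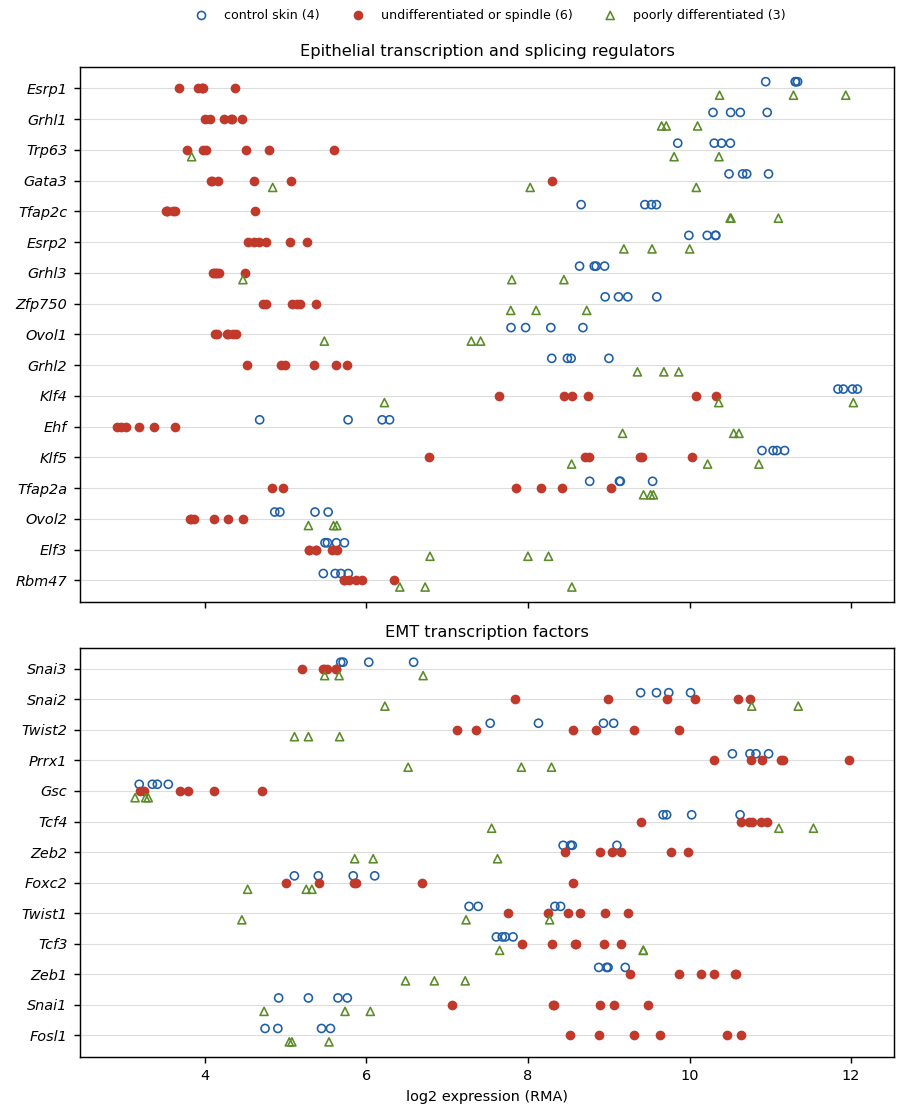
Log2 expression (RMA, x axis) of 17 epithelial transcription and splicing regulators (upper panel) and 13 EMT transcription factors (lower panel), 1 row a gene. Each point is 1 array: open circles 4 control skin, filled circles 6 undifferentiated or spindle tumors, triangles 3 poorly differentiated tumors. For Esrp1, Esrp2 and Grhl1 the 6 tumors form a tight group to the left of both other groups, and for Fosl1 and Snai1 they lie to the right of both.

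Most transcription and splicing factors that keep cells epithelial were low in the tumors. Of 17 such regulators measured, 14 fell, 0 rose and the median difference was -3.92, and leaving out any 1 array gave 14 falls. Esrp1, the epithelial splicing regulator, read 10.94, 11.34, 11.31 and 11.31 in control skin and 3.68 to 4.37 (median 3.97) in the tumors (difference -7.25, SE 0.14, adjusted p = 1.12e-10). Its paralog Esrp2 read 9.99, 10.22, 10.32 and 10.33 and 4.54 to 5.27 (median 4.71) in the same order (difference -5.40, SE 0.16, adjusted p = 2.86e-09). Both groups were tight and far apart, with the highest tumor more than 4 log2 units below the lowest control for each paralog. The Grainyhead-like factors, which activate junction genes, fell together, Grhl1 by -6.36, Grhl2 by -3.38 and Grhl3 by -4.62 as log2 differences. Of 4 Grhl2 probesets 1 was called lower. Trp63, the master factor of stratified epithelium, read 9.85, 10.40, 10.31 and 10.51 in control skin and 3.78 to 5.61 (median 4.26) in the tumors, which did not overlap. Its probeset does not separate the isoforms of p63. Tfap2c (-5.57), Zfp750 (-4.18), Ovol1 (-3.92), Klf4 (-2.99), Ehf (-2.55), Klf5 (-2.20) and Ovol2 (-1.11) fell as well, each without overlap. Gata3, a factor of hair follicle and epidermal lineages, fell (-5.66, SE 0.74, adjusted p = 3.67e-04), and p53 tumor 3 kept a level of 8.29 where the other tumors were at or below 5.07. Tfap2a (-1.94, SE 0.84, adjusted p = 0.126), Rbm47 (0.26, SE 0.13, adjusted p = 0.193) and Elf3 (-0.17, SE 0.10, adjusted p = 0.294) did not pass the test. Tfap2a was split, with pRbp53 tumors 2 and 5 at 4.96 and 4.83 and the other 4 tumors at or above 7.85.

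E-cadherin and the desmosome fell with them. Cdh1 (E-cadherin) read 10.89, 10.90, 11.37 and 11.11 in control skin and 3.91 to 6.48 (median 4.74) in the tumors, with the highest value in the undifferentiated p53 tumor 3 (difference -6.19, SE 0.42, adjusted p = 2.6e-06). Epcam, an adhesion molecule of simple and progenitor epithelium, read 10.35, 11.14, 10.04 and 10.80 and 4.81 to 6.87 (median 4.91), again with p53 tumor 3 highest. Of 14 desmosome genes 13 fell, with a median difference of -4.73, under every left-out array as well (13 falls). Desmoplakin, which ties the desmosome to keratin filaments, read 12.98, 12.89, 13.40 and 13 in control skin and 3.28 to 5.09 (median 4.17) in the tumors. The desmosomal cadherins Dsc1 (-7.96), Dsg1a (-7.84) and Dsc3 (-7.66) each spread by less than 1 log2 unit across the 6 tumors. Perp, a tetraspan desmosome protein that is also a p53 target, spread more widely, from 4.0 in p53 tumor 6 to 8.76 in p53 tumor 3, against 12.63 to 12.92 in the controls. Plakophilin 2 (Pkp2), found also in desmosomes of non-squamous cells, was the member that did not pass (difference 0.91, SE 0.75, adjusted p = 0.433).

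Promoters of these genes, where available, were searched for CAGGTG, which read on the other strand is CACCTG, the E-box bound by Snail and Zeb factors. The sequences are those of RefSeq on GRCm38.p6, 250 bases before to 50 after the start of the gene, and 5413 of all 27025 promoters of that table held the motif. It was found in 2 of 8 promoters of the epithelial regulators (Grhl3 and Elf3), 1 of 2 desmosome promoters (Dsp) and 0 of 1 cadherin promoters. Most genes of these lists had no promoter to search, since 17 regulators, 14 desmosome genes and 7 cadherins were measured. Cdh1 and Esrp1 were among those not searched. Of 14 tight and gap junction promoters, a list added to this search after its values were seen, 8 held it (57.1%). The promoters of Dsp (chr13:38151044-38151343, plus strand) and Grhl3 (chr4:135573583-135573882, minus strand) are shown because both genes fell in all 6 tumors and carry the motif, in capitals. In Dsp it begins 4 bases after the start site, and in Grhl3 it lies on the opposite strand 19 bases before and 9 bases after the start site.
Dsp: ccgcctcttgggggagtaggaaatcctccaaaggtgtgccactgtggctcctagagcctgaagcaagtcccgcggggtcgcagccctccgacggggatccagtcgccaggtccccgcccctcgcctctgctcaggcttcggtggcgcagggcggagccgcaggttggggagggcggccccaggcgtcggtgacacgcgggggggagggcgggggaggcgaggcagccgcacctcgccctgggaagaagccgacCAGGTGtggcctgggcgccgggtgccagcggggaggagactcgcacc
Grhl3: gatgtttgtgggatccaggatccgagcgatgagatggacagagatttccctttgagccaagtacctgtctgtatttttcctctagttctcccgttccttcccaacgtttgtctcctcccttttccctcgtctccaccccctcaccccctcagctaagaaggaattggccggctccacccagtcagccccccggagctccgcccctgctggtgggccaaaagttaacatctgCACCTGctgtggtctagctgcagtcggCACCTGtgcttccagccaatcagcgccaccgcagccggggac
A match describes these letters and not binding, and no binding was measured.

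Tight junctions and the anchorage to the basement membrane did not fall evenly. Of 16 tight and gap junction genes 13 fell (median -3.02), among them the barrier claudin Cldn1 (-5.66), Cldn23 (-4.75), the connexin Gjb5 (-4.63), tricellulin Marveld2 (-3.94), occludin Ocln (-3.88) and Cldn4 (-3.64). Cldn1 was at or below 5.14 in 5 tumors and at 7.16 in pRbp53 tumor 5, and of 4 Cldn1 probesets 2 were called lower. The connexin Gja1 (-0.39, SE 0.26, adjusted p = 0.329) and the scaffold Tjp1 (-0.27, SE 0.47, adjusted p = 0.734), which are also used outside epithelia, did not pass. Neither did the epithelial claudin Cldn7, read by 1 probeset. Among 10 hemidesmosome and epidermal laminin genes 5 fell and 0 rose. Collagen XVII (Col17a1) read 12.17, 11.96, 11.87 and 11.96 in control skin and 3.62 to 6.67 (median 3.99) in the tumors, a difference of -7.52, SE 0.54, adjusted p = 3.93e-06. The laminin-332 chains Lamb3 (-4.19) and Lama3 (-3.65) and the integrin Itgb4 (-2.93) fell too, and Lamb3 was at 9.06 in p53 tumor 3, just under the lowest control (9.33), and at or below 5.90 elsewhere. Integrin Itga6, the partner of Itgb4, did not pass (-1.30, SE 0.58, adjusted p = 0.137) and was highest in p53 tumor 3 at 11.78.

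Keratins of the basal layer were low in all 6 tumors. All 8 basal and stress keratins fell, with a median of -6.12. Krt5 read 12.90, 12.93, 12.72 and 13.04 in control skin and 5.05 to 5.72 (median 5.32) in the tumors, and its partner Krt14 read 12.90, 13.17, 13.13 and 13.18 and 4.36 to 6.99 (median 4.78). The hair follicle stem cell keratin Krt15 differed by -8.17, SE 0.11, adjusted p = 8.44e-12, with all 6 tumors between 4.96 and 5.04. Suprabasal and cornified envelope genes numbered 30, of which 27 fell with a median of -6.14, and leaving out any 1 array left that count at 27. Loricrin was not analysed here. Keratin 10, the suprabasal partner of keratin 1, read 14.07, 14.05, 14.21 and 14.15 in the controls and 6.59 to 7.63 (median 7.16) in the tumors.

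**Figure D2:**
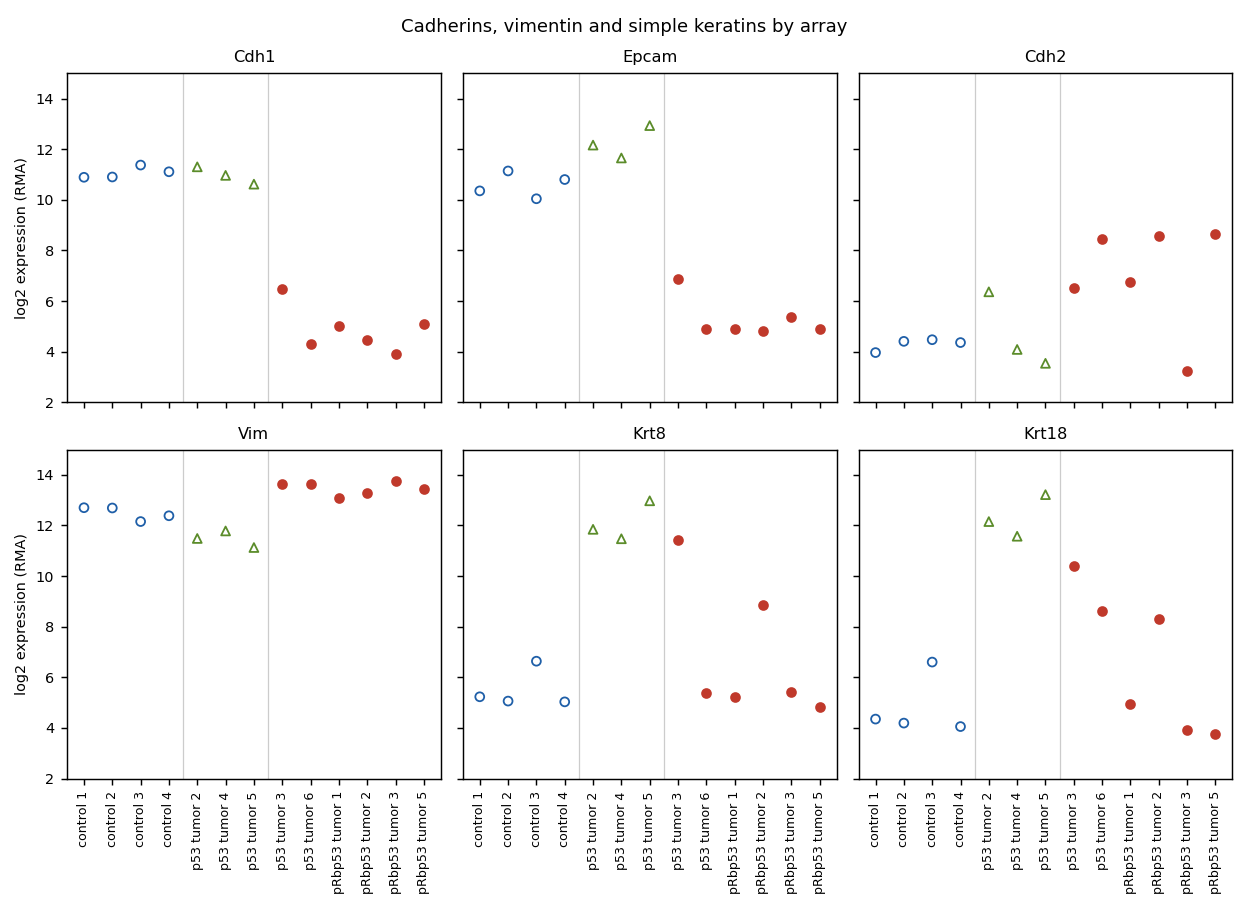
Log2 expression (RMA, y axis) of Cdh1, Cdh2, Epcam, Vim, Krt8 and Krt18, 1 panel a gene, on 1 shared scale. Points are arrays, with 4 control skin, 3 poorly differentiated tumors and the 6 undifferentiated or spindle tumors named along the x axis. Cdh1 and Epcam are low in all 6 tumors, while Cdh2 ranges from 3.23 to 8.64 and Krt8 from 4.84 to 11.41 among them.

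Keratins of simple epithelium showed no common level. Krt8 read 5.23, 5.06, 6.64 and 5.03 in control skin, and 11.41 in p53 tumor 3, 8.85 in pRbp53 tumor 2 and 5.37, 5.23, 5.40 and 4.84 in the other 4 tumors. Its partner Krt18 read 4.35, 4.19, 6.60 and 4.05 in control skin, 10.40, 8.61 and 8.30 in p53 tumors 3 and 6 and pRbp53 tumor 2, and 3.75 to 4.94 in the remaining 3. Neither passed the test (adjusted p = 0.487 and 0.371), and p53 tumor 6 carried Krt18 with Krt8 at the level of the controls (5.37). N-cadherin (Cdh2), the classical cadherin of mesenchymal cells, varied among the tumors in another pattern. It read 3.96, 4.41, 4.47 and 4.36 in control skin and 6.51, 8.47, 6.74, 8.58, 3.23 and 8.64 in p53 tumors 3 and 6 and pRbp53 tumors 1, 2, 3 and 5. The 5 tumors other than pRbp53 tumor 3 were above every control, pRbp53 tumor 3 was below all of them, and the difference did not pass (2.73, SE 0.95, adjusted p = 0.0618). Leaving out pRbp53 tumor 3 brought Cdh2 past the threshold, with a difference of 3.49 (SE 0.48, limma adjusted p = 0.000719). Cadherin 11, of osteoblasts and fibroblasts, rose in all 6 tumors (2.38, SE 0.48, adjusted p = 0.00486). Cdh4 (-3.48) and Cdh3, the P-cadherin of basal cells (-0.89), fell with Cdh1, so 3 of 7 classical cadherins fell and 1 rose.

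Some EMT transcription factors rose over normal skin and others did not pass the test. Of 13 measured, 4 rose and 0 fell (median 0.56), with 4 to 5 rises when 1 array was left out. Snai1 (Snail) read 5.76, 5.28, 5.65 and 4.91 in control skin and 7.06 to 9.49 (median 8.61) in the tumors (difference 3.12, SE 0.41, adjusted p = 3.64e-04). Fosl1 (Fra-1), a subunit of the AP-1 complex, read 4.90, 4.75, 5.45 and 5.56 and 8.52 to 10.64 (median 9.47) (difference 4.41, SE 0.41, adjusted p = 3.02e-05). In both genes every tumor was above every control. Zeb1 rose by less (1.11, SE 0.24, adjusted p = 0.00724), since control skin already read 8.99, 8.88, 9.20 and 8.97, and Tcf3 rose by 0.88 (adjusted p = 0.0127). Snai2 (Slug) differed by -0.02 and ran from 7.84 in p53 tumor 3 to 10.76 in pRbp53 tumor 3, on both sides of the controls (9.40 to 10.01). Twist1 (0.71), Zeb2 (0.56), Tcf4 (0.56), Foxc2 (0.62), Gsc (0.42), Prrx1 (0.26), Twist2 (0.10) and Snai3 (-0.52) did not pass. These values are of the brightest probesets, and of 6 Prrx1 probesets 2 were called higher. The count of rises was 2 when all 16 arrays were fitted in 1 model and 7 with array weights.

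Mesenchymal genes were near the level of normal skin, which holds dermis, and of 14 measured 5 rose and 0 fell (median 0.69). Vimentin (Vim) read 12.70, 12.69, 12.15 and 12.38 in control skin and 13.08 to 13.75 (median 13.53) in the tumors, a difference of 0.99, SE 0.16, adjusted p = 0.00159. Podoplanin (Pdpn), a membrane glycoprotein of invading tumor cells and lymphatic vessels, rose by 2.17, the fibroblast receptor Pdgfra by 1.57, fibronectin (Fn1) by 1.43 and the intermediate filament nestin (Nes) by 1.37. For Fn1 the groups overlapped, because p53 tumor 3 read 11.57 among controls of 11.37 to 11.78. Dermal fibroblast markers were present at high level in both groups. Summed as a mean over 8 markers they stood at 12.26 to 12.78 in control skin and 11.11 to 13.27 in the tumors, and 1 of 8, Pdgfra, rose. The part that stromal fibroblasts have in these mesenchymal values was not tested.

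Beside 14.3% of all genes higher and 15.5% lower, 4 of 18 collagens rose and 2 fell, and leaving out any 1 of the controls gave 2 rises. Of 13 elastic fibre and dermal matrix genes 2 rose and 1 fell. Leaving out 1 array gave 1 to 3 rises there, with 1 without any 1 of the controls or of the pRbp53 tumors, and 1 to 5 falls, with 3 without p53 tumor 3 or pRbp53 tumor 1, 2 without pRbp53 tumor 2 and 5 without pRbp53 tumor 3. Col12a1, a fibril-associated collagen, read 6.70, 7.49, 6.85 and 6.93 in control skin and 8.12 to 12.51 (median 9.96) in the tumors, and Col8a1 read 5.93, 6.78, 6.10 and 6.33 and 7.5 to 10.95 (median 8.63). Col15a1 (-2.63) and Col14a1 (-2.0) fell, and the main fibril chains Col1a1 (-0.69, SE 0.46, adjusted p = 0.322) and Col1a2 (-0.34, SE 0.25, adjusted p = 0.38) did not pass. Among the dermal matrix genes Mfap4 fell (-2.80, SE 0.58, adjusted p = 0.00604), Emilin1 (1.77) and Fbln2 (1.94) rose, and elastin (Eln) did not pass (-2.29, SE 0.79, adjusted p = 0.0595), with tumors from 5.98 to 10.32. The proteoglycan Fmod had one of the widest spreads, from 4.17 in p53 tumor 3 to 11.92 in pRbp53 tumor 3.

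Matrix of the kind laid down in wounds, and the enzymes that crosslink collagen, rose more evenly. Of 19 such genes 9 rose and 0 fell (median 1.42), with 8 to 11 rises when 1 array was left out. Tenascin C read 5.97, 7.22, 6.99 and 6.30 in control skin and 10.91 to 12.59 (median 12.29) in the tumors. The lysyl hydroxylase Plod2 read 4.59, 6.13, 5.61 and 7.13 and 9.51 to 10.72 (median 10.43), and the lysyl oxidase Loxl3 read 6.28, 6.38, 6.0 and 6.67 and 8.91 to 10.72 (median 9.24). No tumor overlapped a control in these 3 genes. Versican (Vcan, 2.98), thrombospondin 1 (Thbs1, 2.25), the prolyl hydroxylase subunit P4ha3 (1.55) and Fn1 (1.43) rose as well.

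**Figure D3:**
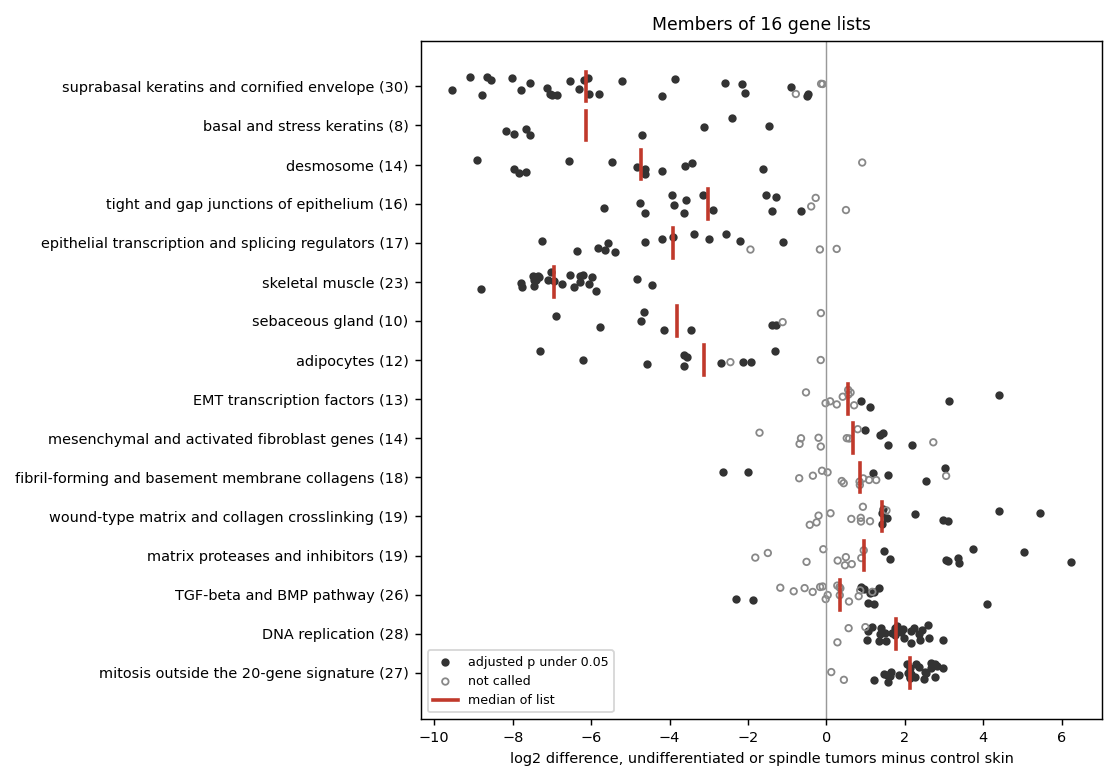
Log2 difference between the 6 undifferentiated or spindle tumors and the 4 control skin arrays (x axis) for the members of 16 gene lists, 1 row a list. Each point is a gene, filled where limma's adjusted p was under 0.05, and the bar marks the median of the list. Epithelial lists lie left of 0 and the lists of mitosis, replication, proteases and wound-type matrix lie mostly right of it.

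Proteases and their inhibitors included Mmp13, the largest rise of the ranking. Of 19 measured 9 rose and 0 fell, and leaving out 1 array gave 7 to 8 rises. Mmp10 (stromelysin 2) read 4.51, 4.23, 4.63 and 4.49 in control skin and 4.98 to 10.13 (median 8.89) in the tumors, with pRbp53 tumor 1 lowest. Mmp9 (gelatinase B) read 7.66, 7.18, 6.49 and 7.38 and 8.47 to 11.61 (median 10.39) (difference 3.09, SE 0.50, adjusted p = 0.00145). The aggrecanase Adamts4 (3.37) and the membrane protease Adam12 (3.36) rose without overlap, as did the urokinase receptor Plaur (3.04). Timp1 rose by 5.04, whereas Timp3, the inhibitor bound to the matrix, did not pass (-1.81, SE 0.61, adjusted p = 0.0547). Of 4 Timp3 probesets 1 was called lower. Mmp2 and Mmp14, proteases of fibroblasts, did not pass by their brightest probesets (0.29 and 0.89). Of 3 Mmp14 probesets 2 were called higher. Among 12 integrins of matrix adhesion 4 rose and 2 fell, with 1 fall without any 1 of the controls, p53 tumor 6 or pRbp53 tumor 2. The fibronectin receptor chain Itga5 read 6.78, 6.38, 6.97 and 6.17 in control skin and 8.29 to 10.58 (median 9.02) in the tumors, and its partner Itgb1 rose by 1.61.

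In the TGF-beta and BMP pathway 8 of 26 genes rose and 2 fell. Among the ligands, the activin subunit Inhba read 5.91, 6.62, 6.56 and 6.59 in control skin and 9.93 to 11.26 (median 10.53) in the tumors (difference 4.09, SE 0.26, adjusted p = 1.38e-06), without overlap. Of 2 Inhba probesets 1 was called higher. Tgfb3 rose by 1.35 and Tgfb1 by 1.07, while Bmp4 (-2.31) and Bmp7 (-1.87) fell. The receptors Tgfbr1 (0.89) and Acvr1 (0.97) and the latent TGF-beta binding protein Ltbp1 (1.23) rose, as did the nuclear corepressors Tgif1 (1.22) and Skil (1.12). The Smad transducers of the list did not pass, with differences of 0.28 for Smad2, 0.58 for Smad3 and 0.03 for Smad4. Of 2 Smad2 probesets 1 was called lower, and of 3 Smad3 probesets 1 was called higher.

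Of the 4 EGF family receptors 3 fell, and some of their ligands rose. Erbb3 read 10.28, 10.14, 10.47 and 10.01 in control skin and 4.59 to 5.79 (median 5.25) in the tumors (difference -5.06, SE 0.25, adjusted p = 1.71e-07), Erbb2 differed by -1.95 and Egfr by -1.35. Of 7 Egfr probesets 2 were called lower, and of 2 Erbb3 probesets 1 was. Erbb4 read 2.66 to 3.02 in control skin and 2.77 to 3.09 in the tumors and did not pass (0.06, SE 0.10, adjusted p = 0.722). Among ligands, epiregulin (Ereg, 1.61), Hbegf (1.97) and Nrg1 (0.65) rose and Btc (-2.73) and Egf (-2.08) fell, and the feedback inhibitor Errfi1 rose (1.40). In all 4 of 12 rose and 5 fell, and the rises numbered 2 without control skin 1, 2 or 4 or pRbp53 tumor 5. Tgfa did not pass (-2.27, SE 0.81, adjusted p = 0.068), and p53 tumor 3 read 8.66, above the controls (7.38 to 7.81), and the other tumors read at or below 5.97. Of 22 Wnt ligands, receptors and antagonists 7 fell, among them Wnt4 (-3.32) and the receptor Fzd6 (-2.96), and the antagonist Sfrp2 was the 1 that rose (3.36, SE 0.94, adjusted p = 0.0258), from 6.72 in p53 tumor 6 to 11.82 in pRbp53 tumor 5. Sfrp2 lost its call without control skin 1, 2 or 4 (limma adjusted p = 0.055, 0.0759 and 0.0676). Axin2, a target of canonical Wnt signaling, differed by -1.79, SE 0.37, adjusted p = 0.00577.

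Most genes of the cell cycle rose. The study took its signature of 20 genes from another set of mouse arrays, its training set, and from human tumors, and 20 of 20 rose here with a median of 2.42. The arrays of this series were the study's testing set, in which it had already used these genes to tell tumors from skin. The count is therefore not a new check of the signature. Of 27 other mitotic genes 25 rose, of 28 DNA replication genes 25, and of 12 genes of homologous recombination and Fanconi repair 9. None of these lists had a member that fell by its brightest probeset. Cenpa of the signature was read by 3 probesets, of which 1 rose and 1 fell. Leaving out 1 array gave 18 to 26 mitotic rises. The kinase Cdk1 read 6.01, 7.22, 7.02 and 6.93 in control skin and 8.52 to 10.62 (median 9.78) in the tumors, and the spindle checkpoint kinase Bub1 read 4.14, 5.80, 5.51 and 5.40 and 7.28 to 10.42 (median 9.21). In both genes pRbp53 tumor 3 was the lowest tumor and p53 tumor 3 or pRbp53 tumor 2 the highest. As a mean over the other mitotic genes pRbp53 tumor 3 stood at 7.09, pRbp53 tumors 1 and 5 at 8.0 and 8.22, and p53 tumor 6, p53 tumor 3 and pRbp53 tumor 2 at 8.79, 9.25 and 9.30, with controls at 5.91 to 6.63. Brca1 (2.81), Rad51ap1 (2.75) and Rad18 (2.33) led the repair genes, and Cdc6 (2.61), Cdc45 (2.60) and Dbf4 (2.99), which act at replication origins, led the replication genes.

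Promoters of cell-cycle genes are known for the CHR element, at which the DREAM complex represses them downstream of p53, and for the CCAAT box, which binds the activator NF-Y. The CHR was searched as TTTGAA, which read on the other strand is TTCAAA. The CCAAT box was searched as CCAAT, which read on the other strand is ATTGG. The CHR was in 11 of 17 signature promoters (64.7%) and 18 of 23 other mitotic promoters (78.3%), against 18.1% of all promoters. The CCAAT box was in 12 of 17 (70.6%) and 18 of 23 (78.3%), against 37.8% of all. Cdk1 (chr10:69352863-69353162, minus strand) and Ccnb2 (chr9:70421505-70421804, minus strand) are shown as examples with both motifs in capitals, which do not overlap. In Cdk1 the CHR begins 71 and 15 bases before the start site and the CCAAT box is on the opposite strand, and in Ccnb2 the CHR begins 167 bases before and 5 bases after it.
Cdk1: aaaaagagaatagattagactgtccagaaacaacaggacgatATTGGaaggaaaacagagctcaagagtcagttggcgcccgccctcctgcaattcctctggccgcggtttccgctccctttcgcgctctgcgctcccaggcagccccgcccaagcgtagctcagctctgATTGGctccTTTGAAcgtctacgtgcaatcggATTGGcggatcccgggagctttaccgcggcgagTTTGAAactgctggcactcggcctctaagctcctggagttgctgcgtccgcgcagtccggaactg
Ccnb2: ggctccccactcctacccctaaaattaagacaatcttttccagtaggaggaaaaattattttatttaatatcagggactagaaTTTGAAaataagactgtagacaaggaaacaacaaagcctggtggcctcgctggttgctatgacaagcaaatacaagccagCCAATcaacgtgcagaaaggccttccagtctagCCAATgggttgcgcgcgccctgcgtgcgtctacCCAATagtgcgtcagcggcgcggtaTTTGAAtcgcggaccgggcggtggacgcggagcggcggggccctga
Ccnb2 (cyclin B2) read 6.39, 7.5, 7.17 and 7.17 in control skin and 8.73 to 10.81 (median 9.69) in the tumors.

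Regulators of G1 and targets of p53 moved in different ways. The tumor suppressor locus Cdkn2a, which encodes p16Ink4a and p19Arf, read 4.66, 3.90, 4.89 and 3.57 in control skin and 7.52 to 9.09 (median 8.23) in the tumors (difference 4.11, SE 0.36, adjusted p = 1.96e-05), and its probeset does not separate the products. Cyclin E2 (Ccne2, 2.64), the ubiquitin ligase subunit Skp2 (2.61) and the repressor E2f7 (2.34) rose, and cyclin D2 (Ccnd2, -2.38) fell, so that 12 of 24 genes rose and 3 fell. E2f8 did not pass (2.07, SE 0.72, adjusted p = 0.0605). Of 19 p53 target genes 9 fell and 3 rose. Cdkn1a (p21), the main arrest gene downstream of p53, read 10.67, 10.92, 11.47 and 10.79 in control skin and 8.53 to 10.61 (median 9.33) in the tumors, and Ccng1 (-1.93) and Sesn1 (-1.51) fell without overlap. Pmaip1 (Noxa) did not pass (1.5, SE 0.52, adjusted p = 0.0628). Myc rose by 0.89 (adjusted p = 0.0153) and 12 of 17 genes of its list did, a count of 2 without control skin 1, of 4 without control skin 3 or pRbp53 tumor 2, of 5 without control skin 2 or p53 tumor 3 or 6, of 6 without pRbp53 tumor 1 and of 9 to 13 without any other array.

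Muscle genes fell, and with them part of the metabolic genes. All 23 skeletal muscle genes fell (median -6.95), with a mean over the list of 12.30 to 12.55 in control skin against 4.66 to 7.92 in the tumors, highest in pRbp53 tumor 5 (7.92) and pRbp53 tumor 2 (6.60). Normal mouse skin carries a sheet of striated muscle, and adipocyte markers fell too, 10 of 12, with 8.37 to 9.93 in controls and 5.24 to 6.76 in tumors. Of 14 genes of mitochondrial respiration 6 fell, the largest being the muscle isoform Cox7a1 (-5.10, SE 0.23, adjusted p = 1.01e-07). Glycolytic Aldoa differed by -1.75, SE 0.26, adjusted p = 7.56e-04, whereas Hif1a (1.36) and Vegfa (1.45) rose. Their list, of glycolytic enzymes and genes linked to low oxygen, had 4 higher and 3 lower of 17 measured. Glycolytic enzymes were on both sides, so glycolysis did not fall as a whole. The part of muscle and fat in the respiratory and glycolytic values was not tested. Sebaceous gland genes fell in 8 of 10, among them Far2 (-6.90) and Scd1 (-4.15). Smooth muscle markers fell in 6 of 12, led by Synpo2 (-5.36), and melanocyte markers in 4 of 8, led by Dct (-2.92).

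**Figure D4:**
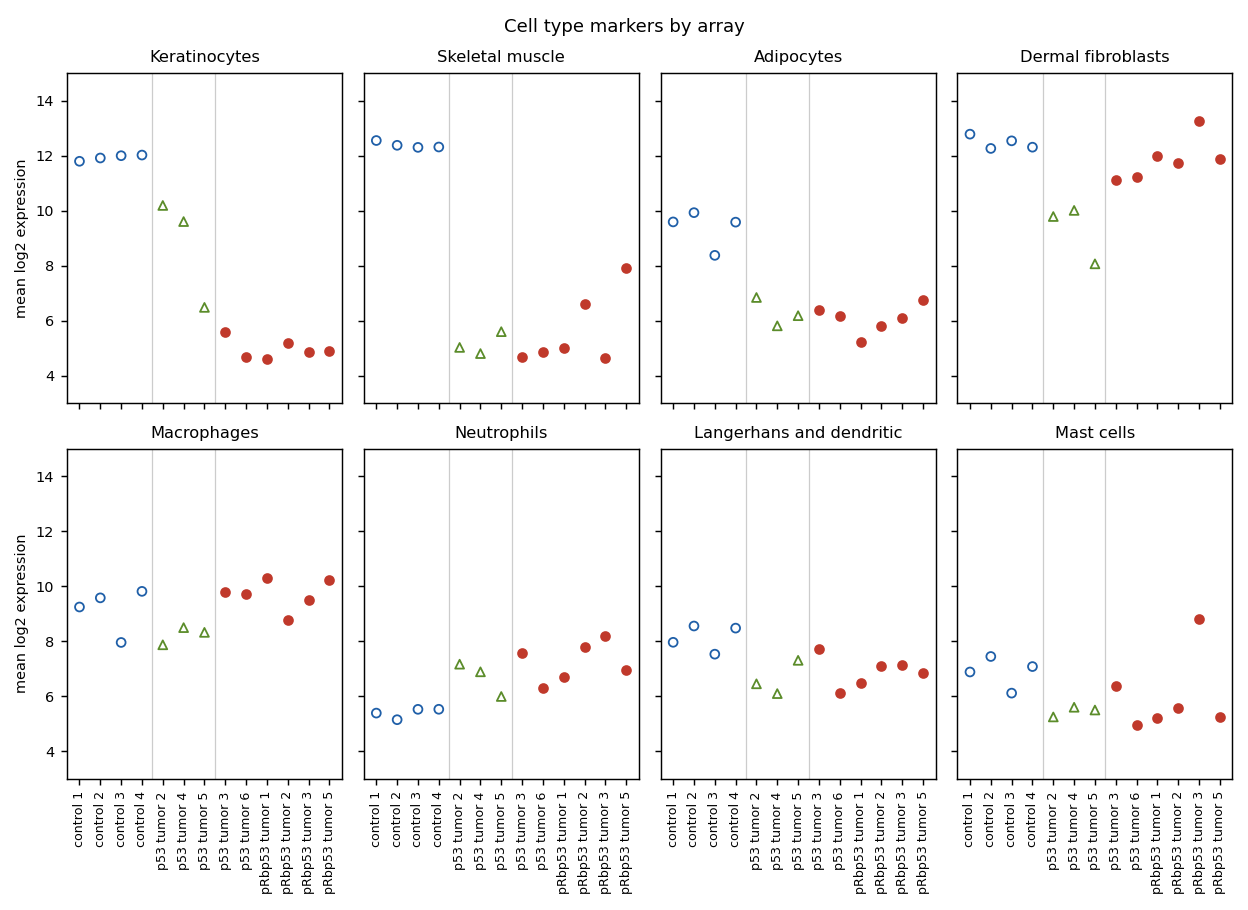
Mean log2 expression (RMA, y axis) over the measured markers of 8 cell types, 1 panel a cell type. Points are arrays, with 4 control skin, 3 poorly differentiated tumors and the 6 undifferentiated or spindle tumors in the order of the x axis. Skeletal muscle and keratinocyte markers are low in all 6 tumors, neutrophil markers are above every control, and mast cell markers are highest in pRbp53 tumor 3 at 8.81.

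Immune markers changed by cell type. Of 11 neutrophil markers 5 rose and 0 fell, and the mean over the list was 5.14 to 5.52 in control skin and 6.31 to 8.19 in the tumors, without overlap. The alarmins S100a8 and S100a9, made by neutrophils and by stressed keratinocytes, read 6.94, 7.27, 5.30 and 8.50 and 6.39, 6.22, 6.19 and 7.21 in control skin and 8.94 to 12.54 (median 11.09) and 8.61 to 11.75 (median 10.47) in the tumors. The lectin receptor Clec4d differed by 3.99, SE 0.35, adjusted p = 2.06e-05. Markers of Langerhans and dendritic cells fell in 6 of 11, and in 3 without control skin 2 or 4 or pRbp53 tumor 1 or 5, with Cd207 (langerin) at 8.82, 9.77, 8.20 and 9.44 in control skin and 4.70 to 5.51 (median 4.89) in the tumors. T and NK cell markers fell in 5 of 9, with the T cell receptor chain Cd3g at -3.35, SE 0.36, adjusted p = 8.68e-05, and no B cell marker of 7 passed. Macrophage markers rose in 3 of 14 and fell in 1, with means of 7.95 to 9.81 in control skin and 8.75 to 10.29 in the tumors. Control skin 3 had the lowest macrophage mean (7.95) and control skin 4 the highest of the controls (9.81). The macrophage rises numbered 1 without control skin 1 or 3, p53 tumor 3 or pRbp53 tumor 5, 5 without control skin 4, and 7 without pRbp53 tumor 2, the tumor with the lowest mean (8.75). The 1 macrophage fall was lost without control skin 1, 2 or 4, p53 tumor 3 or 6 or pRbp53 tumor 3. Mast cell markers fell in 3 of 9, in 1 without control skin 1 or 4, p53 tumor 6 or pRbp53 tumor 5, and in 0 without control skin 2. Over these markers pRbp53 tumor 3 stood apart with a mean of 8.81 against 4.95 to 6.38 in the other 5 tumors.

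Among soluble mediators, 9 of 24 chemokines and interleukin-1 family members rose and 5 fell, with 3 falls without control skin 1 or 2. Cxcl5 read 3.49, 3.34, 3.59 and 3.37 in control skin and 5.33 to 9.99 (median 8.40) in the tumors, Ccl2 differed by 2.97 and Cxcl10 by 2.90, and the receptor Cxcr4 by 3.05. The interleukin-1 decoy receptor Il1r2 fell (-2.92, SE 0.76, adjusted p = 0.0178). Interferon-stimulated genes rose in 3 of 12, and Ifit1 did not pass (1.77, SE 0.74, adjusted p = 0.113) and was at 9.97 in p53 tumor 3 and 5.70 in p53 tumor 6. Of 22 angiogenic factors and receptors 8 rose, including Vegfc (2.12), apelin (Apln, 1.91) and Vegfa, and 1 fell. Without control skin 2 or 4 the rises numbered 5, the fall was lost without control skin 1, 3 or 4, and 2 fell without pRbp53 tumor 2. Endothelial markers were 7.14 to 7.57 in controls and 6.83 to 7.65 in tumors as a mean, with Emcn higher (1.48) and Vwf (-1.66) and Ramp2 (-1.38) lower.

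The comparison with poorly differentiated tumors asked what separates the highest grade from the grade below it. It called 1531 probesets higher and 1795 lower, 3326 in all. As genes, 816 (4.49%) were higher and 844 (4.64%) were lower in the 6 undifferentiated or spindle tumors. The 3 poorly differentiated tumors carried milk and mammary genes, with the casein Csn3 at 11.06 to 14.29 and the mammary factor Elf5 at 9.45 to 12.37, against 3.99 to 9.96 and 3.57 to 5.24 in the 6 tumors, and the simple keratin Krt7 at 9.76 to 11.49 against 4.38 to 5.0. The part of this content in the differences from poorly differentiated tumors was not tested. All 3 of these tumors are of the p53 line, and 4 of the 6 are pRbp53, so line and grade partly coincide here, and with the pRbp53 tumors alone 2542 probesets were called. Leaving out p53 tumor 4 gave 2039 probesets. With sex, read from Xist on the arrays, as a covariate 1614 were called, and Xist was high in all 3 poorly differentiated tumors and in 3 of the 6.

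Many epithelial genes read higher in poorly differentiated tumors than in the 6. Whether these levels were kept from skin or came with the mammary content was not tested. Cdh1 read 11.30, 10.96 and 10.62 in poorly differentiated tumors and 3.91 to 6.48 in the 6 (difference -6.09, SE 0.50, adjusted p = 2.58e-04). Esrp1 read 11.29, 10.37 and 11.93 against 3.68 to 4.37 (difference -7.22, SE 0.30, adjusted p = 5.4e-06), and Esrp2 differed by -4.76, Grhl1 by -5.59 and Grhl2 by -4.44. Of 17 epithelial regulators 10 were lower, with 10 to 12 when 1 array was left out, against 4.64% of all genes. Of 16 tight and gap junction genes 11 were lower and of 14 desmosome genes 8, including Dsp (-7.5, SE 0.45, adjusted p = 4.48e-05). The desmosome count was 5 without p53 tumor 4 and 12 without p53 tumor 5. Falls were ranked among called genes whose groups do not overlap. The 8 genes with the largest falls were Fxyd3 (-7.57), Dsp, Esrp1, Tfap2c (-6.97), Epcam (-6.96), Ehf (-6.93), Elf5 (-6.63) and Plet1 (-6.57). Ehf read 4.68 to 6.29 in control skin and 9.17 to 10.61 in poorly differentiated tumors.

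Stratified differentiation, by contrast, was uneven in the lower grade. Krt5 read 11.73, 10.77 and 4.76 in p53 tumors 2, 4 and 5, and Trp63 read 9.81, 10.37 and 3.84, so that p53 tumor 5 was as low as the 6 tumors for both and neither gene passed (adjusted p = 0.123 and 0.139). No basal keratin and no cornified envelope gene passed this comparison in either direction. At an unadjusted p of 0.05 the limma fit gave 7 lower of 8 and 15 lower of 30. Without p53 tumor 5, 7 basal keratins and 13 cornified envelope genes were lower.

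Prrx1, Zeb2 and Twist2, whose brightest probesets did not pass against control skin, were among the factors that passed against the lower grade. Of 13 EMT factors 6 were higher, with 5 to 6 when 1 array was left out. Prrx1, a factor of embryonic mesenchyme and fibroblasts, read 10.98, 10.75, 10.82 and 10.53 in control skin, 8.29, 7.92 and 6.52 in poorly differentiated tumors and 10.30 to 11.97 (median 11.01) in the 6 (difference from poorly differentiated 3.46, SE 0.44, adjusted p = 0.00246). Zeb1 read 6.84, 7.22 and 6.48 in poorly differentiated tumors, with a difference of 3.27, SE 0.30, adjusted p = 4.98e-04, and Zeb2 (2.69), Twist2 (3.16), Snai1 (3.02) and Fosl1 (4.36) were higher too. Vimentin differed by 2.0, SE 0.19, adjusted p = 5.86e-04. Dermal fibroblast markers moved along with these factors, 5 of 8 higher, with means of 8.06 to 10.01 in poorly differentiated tumors and 11.11 to 13.27 in the 6, and 2 were higher without p53 tumor 2 or 6 or any 1 of the 4 pRbp53 tumors and 3 without p53 tumor 5. Of 14 macrophage markers 10 were higher (8 to 10 with 1 array left out) and 1 lower (0 without any 1 of the p53 tumors or pRbp53 tumor 1 or 2), with means of 7.87 to 8.49 against 8.75 to 10.29. The part of stromal and immune cells in the EMT factor differences was not tested.

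Among the 8 largest rises over poorly differentiated tumors, the retinoic acid binding protein Crabp1 read 5.38, 6.11 and 4.82 there and 7.62 to 12.95 (median 11.55) in the 6 tumors. The BMP antagonist Grem1 read 4.22, 5.05 and 5.06 and 8.39 to 11.90 (median 9.61), and the ligand Ereg read 4.46, 4.99 and 4.16 and 8.58 to 9.99 (median 9.38). The ranking took only called genes whose grades do not overlap, so no tumor of one grade overlapped the other in these 3 genes. Brinp3 (5.45), Cnr1 (5.42), Mmp9 (5.38), the zinc finger protein Bnc2 (5.15) and Lrrc17 (4.58) made up the rest. Of 19 proteases and inhibitors 9 were higher, and of 19 wound-type matrix genes 8, with 4 to 8 and 5 to 9 when 1 array was left out. The proteases numbered 4 without p53 tumor 4 and 5 without p53 tumor 2 or pRbp53 tumor 3 or 5, and the matrix genes 5 without p53 tumor 5 or 6 or pRbp53 tumor 3 or 5. No call separated the grades among mitotic genes, with 0 of 20 signature genes and 0 of 27 other mitotic genes higher, and 1 and 0 at an unadjusted p of 0.05 in the limma fit.

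The 3 mixed tumors, p53 tumors 1 and 7 and pRbp53 tumor 4, hold differentiated and undifferentiated areas, and their values are given as a description. Cdh1 read 7.53, 10.43 and 9.43 and Esrp1 6.88, 10.53 and 8.49, above every one of the 6 tumors and below or among the poorly differentiated ones. p53 tumor 7, which gave the highest of these, had the largest 3' over 5' actin ratio of the 16 arrays (1.67 on the log2 scale), and its part in these values was not tested. Vimentin read 13.24, 11 and 12.57 and Zeb1 10.18, 7.76 and 9.19. Grhl1 read 3.89, 7.23 and 6.10, and p53 tumor 1 was as low as the 6 tumors.

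**Figure D5:**
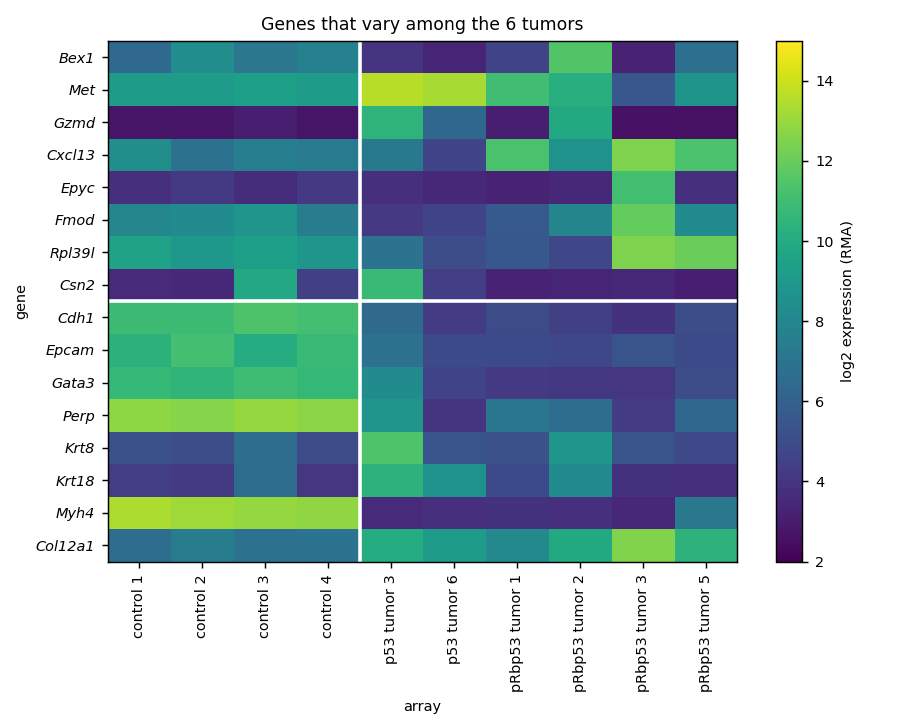
Log2 expression (RMA, color scale) of 16 genes in the 4 control skin arrays and the 6 undifferentiated or spindle tumors, 1 row a gene and 1 column an array. The first 8 rows are the genes with the widest range among the 6 tumors, and the other 8 are epithelial, muscle and collagen genes named in the text. Epyc and Fmod are high in pRbp53 tumor 3, Bex1 in pRbp53 tumor 2, Csn2 in p53 tumor 3, and Rpl39l in pRbp53 tumors 3 and 5.

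Within the 6 tumors, some genes varied by more than 7 log2 units. The hepatocyte growth factor receptor Met read 13.58 and 13.31 in p53 tumors 3 and 6, 11.02, 10.18, 5.51 and 8.72 in pRbp53 tumors 1, 2, 3 and 5, and 9.21, 9.17, 9.33 and 9.17 in control skin, so both p53 tumors and pRbp53 tumors 1 and 2 were above and pRbp53 tumors 3 and 5 below the controls. The ribosomal protein paralog Rpl39l read 12.47 and 12.09 in pRbp53 tumors 3 and 5 and at most 6.95 elsewhere in the group. The matrix proteoglycan Epyc read 11.05 in pRbp53 tumor 3 and at most 3.77 in the other 5. That tumor also had the highest Fmod (11.92) and Col12a1 (12.51), the lowest Cdh2 and the lowest mitotic mean. Bex1 read 11.49 in pRbp53 tumor 2 and at most 6.73 in the others. The lymphoid chemokine Cxcl13 ranged over 7.79 and the granzyme Gzmd over 7.85 log2 units. The milk protein Csn2 read 10.80 in p53 tumor 3 and at most 4.36 in the other tumors, and control skin 3 read 9.83 where the other controls were 3.61, 3.51 and 4.47.

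The undifferentiated tumor had the highest level of several epithelial genes, which were chosen after their values were seen. p53 tumor 3 had the highest Cdh1, Epcam, Gata3, Perp, Krt8, Krt18, Lamb3 and Plet1 of the 6 (6.48, 6.87, 8.29, 8.76, 11.41, 10.40, 9.06 and 7.68), and its Snai1 (8.90) and Vim (13.65) were within the range of the spindle tumors. The mean over 10 mammary gland markers was also highest in this tumor, at 6.84 against 4.03 to 4.63 in the other 5 and 4.10 to 6.24 in control skin, and the part of mammary content in its epithelial values was not tested. With 1 undifferentiated tumor no test between these histologies can be made. With the 5 spindle tumors alone the comparison with control skin called 10242 probesets.

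The 2 genotypes within the group differed in few probesets by this test. The comparison of 4 pRbp53 with 2 p53 tumors called 15 probesets, 9 higher and 6 lower in pRbp53 tumors, at limma's adjusted p of 0.05, and the p53 pair holds the only undifferentiated tumor. Tgfb2 was read by 3 of them. It read 6.22 and 6.46 in the p53 tumors, 8.57, 8.41, 8.90 and 8.51 in the pRbp53 tumors and 9.52, 8.14, 10.28 and 8.16 in control skin, so it was lower in the p53 tumors (pRbp53 minus p53 2.26, SE 0.18, adjusted p = 0.0467). Spred3, an inhibitor of Ras signaling, read 7.53 and 8.01 in p53 tumors 3 and 6, 5.11 to 5.37 in the pRbp53 tumors and 4.47 to 5.30 in control skin (pRbp53 minus p53 -2.56, SE 0.17, adjusted p = 0.0358). Without any 1 of the pRbp53 tumors no probeset passed, with 4431 to 5648 at an unadjusted p under 0.05, without p53 tumor 3 4 did, and without p53 tumor 6 75 did. With sex, read from the arrays, as a covariate 0 probesets passed, and 4910 had an unadjusted p under 0.05 in that fit.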

How the data were processed

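Total RNA of 12 skin tumors and 4 samples of normal skin was hybridised by the authors to Affymetrix MOE430 2.0 arrays, 1 array a sample. The deposited values are log2 expression levels from RMA (background correction, quantile normalization and summary of the probes of a probeset), as named in the submitters' processing notes, and they were used without further scaling. Array medians were 5.63 to 5.76. The number of arrays limits the precision, and no detection calls were used, so a low value is not shown to be above background.

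The table holds 45101 probesets, and without 64 array controls 45037 remained for the tests. The platform annotation of 2016 gave 34945 probesets 1 gene symbol, 932 several and 9160 none, and 34741 of those with 1 symbol matched the RefSeq table. Where a gene had several probesets, the brightest by its mean over the 16 arrays stood for it, which gave 18193 genes. For several other named genes, such as Zeb1 and Col12a1, only part of the probesets was called. Groups came from the labelled histology. Each comparison was fitted on its own arrays with limma 3.58.1 (lmFit and eBayes) in R 4.3.3, without covariates, and p-values were adjusted by Benjamini-Hochberg over all probesets, with a threshold of 0.05. The study's own test was a t-test, of which the form with unequal variances was run as an alternative. Tables, promoter searches and plots used Python 3.11.15, pandas 2.3.3, numpy 2.4.6 and matplotlib 3.10.9. The fits were tested on simulated data.

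The tumors, gene lists and tests were chosen with earlier results of these data known. Named genes are Rb1, members of the EMT and epithelial regulator lists, the 12 largest changes each way from control skin and the 8 largest each way from poorly differentiated tumors among called genes whose groups do not overlap, up to 6 members of each list by size of difference, the 8 widest ranges among the 6 tumors, and Cdh1, Cdh2, Epcam, Vim, Krt5 and Krt14. The genes Acvr1, Cldn7, Egfr, Erbb4, Errfi1, Gja1, Mmp14, Mmp2, Myc, Nrg1, Pkp2, Plaur, Skil, Smad2, Smad3, Smad4, Spred3, Tgfb1, Tgfb2, Tgfbr1, Timp3 and Tjp1 fall outside this rule and were chosen after their values were seen. The alternatives were other normalizations, filters, priors, weights, thresholds and tests, sex read from Xist, subsets of tumors and leaving out each array. Title numbers shared by samples did not pair them, with correlations of deviations of -0.157 to 0.045 between arrays of the same number. The expression of the p53 gene is not reported here.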

Additional observations from a re-analysis of the deposited data

Results flagged for a closer look

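For 203 genes of the text, each group of 6 tumors and of 4 controls was tested for an array far from the others of its group. By Dixon's gap test 31 of 406 groups had one, where chance gives about 1 in 20 for genes not chosen by their values. Some of the genes were named for a wide range or a large difference, so the count cannot be read against that rate. Values are log2 levels, each with the nearest other array of its group. Of the 31, 15 were among the tumors and 16 among the controls.

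p53 tumor 3 was the highest for Clca3a2 (5.68, nearest 3.48), Csn2 (10.80, nearest 4.36), Epcam (6.87, nearest 5.36), Gata3 (8.29, nearest 5.07), Lamb3 (9.06, nearest 5.90) and Plet1 (7.68, nearest 4.71). p53 tumor 3 was the lowest for Tcf4 (9.40, nearest 10.64). p53 tumor 6 was the highest for Grhl3 (4.49, nearest 4.18). pRbp53 tumor 1 was the highest for Loxl3 (10.72, nearest 9.48). pRbp53 tumor 2 was the highest for Tjp1 (11.57, nearest 9.62). pRbp53 tumor 3 was the highest for Epyc (11.05, nearest 3.77) and Tfap2c (4.62, nearest 3.63). pRbp53 tumor 3 was the lowest for Rad51ap1 (6.70, nearest 7.92). pRbp53 tumor 5 was the highest for Axin2 (8.46, nearest 6.93) and Myh4 (7.20, nearest 3.92).

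Control skin 1 was the lowest for Bnc2 (7.30, nearest 8.37), Esrp1 (10.94, nearest 11.31), Inhba (5.91, nearest 6.56), Krt14 (12.90, nearest 13.13), Skp2 (5.75, nearest 6.74), Tfap2c (8.66, nearest 9.45) and Vcan (7.22, nearest 7.92). Control skin 3 was the highest for Cldn4 (9.0, nearest 8.58), Csn2 (9.83, nearest 4.47), Erbb2 (9.01, nearest 8.44), Gzmd (3.10, nearest 2.76), Krt18 (6.60, nearest 4.35), Krt8 (6.64, nearest 5.23) and Zeb2 (9.10, nearest 8.55). Control skin 3 was the lowest for Acvr1 (8.69, nearest 9.15) and Itgb1 (8.55, nearest 9.59). The 9 genes of control skin 3, the array with the larger 3' over 5' ratio for actin, include Csn2, Krt8 and Krt18.

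Between the genotypes of the group, pRbp53 minus p53, Tgfb2 differed by 2.26 and Spred3 by -2.56 on the log2 scale, both tested by limma (adjusted p = 0.0467 and 0.0358) with 4 against 2 tumors. Neither passed when any 1 of the pRbp53 tumors was left out.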

How the results depend on the processing

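Of 152 named genes called against control skin, 96 kept direction and call under every alternative and 116 under all but the replicate block, and none of the called genes changed direction. Of 24 called against poorly differentiated tumors, 14 kept both under all alternatives but the block, which called none. Against control skin the probesets numbered 3799 with the title number as a replicate block, 6160 at an adjusted p of 0.01 and 5865 with a log2 difference of at least 1 (8350 to 11141 with 1 array left out), genes higher 671, 1343 and 1293 (1823 to 2730), and genes lower 1443 with the block and 1793 with a log2 difference of at least 1 (2380 to 2835). Under the block 5 of the 20 signature genes and 3 proteases rose. EMT factors higher were 2 with all 16 arrays in 1 model and 7 with array weights, and cornified envelope genes lower were 16 among brighter probesets, which tests fewer genes. Against poorly differentiated tumors the probesets numbered 825 by the methods' t-test, 0 with the block (5532 at an unadjusted p under 0.05 in limma), 1614 with sex and 1167 at an adjusted p of 0.01 (2039 to 3473 with 1 array left out, lowest without p53 tumor 4), genes higher 260, 0, 444 and 290 (486 to 782, with 501 without p53 tumor 2), and genes lower 162, 0, 423 and 349 (593 to 1003). Between genotypes 0 probesets passed with sex or at an adjusted p of 0.01 and 4 with spindle tumors only (0 to 75 with 1 array left out). The samples share only a number, so a call lost under the block is not a smaller difference. The cause of these changes was not tested. The genotype alternatives, and lists under alternatives against poorly differentiated tumors, were chosen after seeing the data. Small groups and absent detection calls limit what can be called.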
